A study of Rattus norvegicus with 62 samples.

Results

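The 10 genes described here encode the building blocks of the perineuronal net and of related proteoglycan matrix. They are the link protein genes Hapln1 and Hapln4, the lectican core protein genes Acan, Bcan, Ncan and Vcan, the tenascin genes Tnr and Tnc, and the membrane proteoglycan genes Cspg4 and Cspg5. They were taken by gene symbol from the 40982 genes counted in both deposited tables, and all 10 passed the low-count filter in both. RNA came from snap-frozen L4 dorsal root ganglia, the clusters of sensory neuron cell bodies beside the spinal cord, of rats with chronic constriction injury, loose ligatures around the sciatic nerve that model neuropathic pain. The ipsilateral ganglion (IL, injured side) was set against the contralateral ganglion (CL, opposite side) in 5 arms: males at 24 h (6 IL and 6 CL libraries), males at 1 week (7 and 7), males at 5 weeks (5 and 5), females at 1 week (7 and 7) and females at 5 weeks (6 and 6). All animals of these groups carried the injury, so the contralateral ganglia are those of injured rats and not of uninjured ones. Strain and age are not given in the sources used here.

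A perineuronal net is a lattice of extracellular matrix around the soma and proximal dendrites of certain neurons. Its backbone is hyaluronan. Lecticans (aggrecan, brevican, neurocan and versican) bind hyaluronan through their N-terminal end, link proteins lock that bond, and tenascin-R cross-links lecticans at their other end. In the brain and spinal cord such nets are best known around fast-firing, parvalbumin-containing neurons. In peripheral ganglia these genes are also expressed by glia, fibroblasts and vessel cells.

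The 62 libraries held 16.9 to 33.5 M counts. Males at 1 and 5 weeks form one count table, and the females and the males at 24 h form the other, so sex at 1 and 5 weeks, and time between 24 h and the later male arms, cannot be told apart from table. Atf3, the transcription factor gene switched on in axotomised neurons, served as a check of the labels: its lowest IL library exceeded its highest CL library in every arm, with log2 fold changes of 4.46 to 5.27. All 9 neuronal, 9 satellite glial and 9 Schwann cell markers were detected in every group. Of 10 central glial markers, Olig2, which marks oligodendrocytes of the central nervous system, had 0 counts in every library. Olig1 did not exceed 0.158 CPM (counts per M counts of the scaled library), and Mog and Opalin did not exceed 0.703 and 0.563 CPM. Slc1a2, Mobp, Ermn and Aqp4 averaged 0.558, 1.06, 1.1 and 2.43 CPM over all libraries, and Gfap and Mag 40.9 and 41.3 CPM. Mag is also among the 9 Schwann cell markers. Gfap was higher in IL ganglia, by 2.24 on the log2 scale at 24 h and 1.81 in males at 5 weeks. In females it was higher by 2.13 and 2.11 at 1 and 5 weeks. The mean share of counts in ribosomal RNA genes was 0.97% in IL and 2.25% in CL ganglia of females at 1 week, without overlap between libraries. In the other arms the mean shares of the sides were close, with the widest gap in males at 5 weeks (3.74% in IL and 3.32% in CL). The share also differed between arms, with means of 0.869% at 24 h, 5.1% at 1 week and 3.32% at 5 weeks in CL ganglia of males.

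In the tables' build, mRatBN7.2, Ncan and Hapln4 are neighbours on chromosome 16. Ncan spans 19301969 to 19328436 on the plus strand and Hapln4 spans 19333106 to 19341243 on the minus strand, so that their ends lie 4.67 kb apart with no gene start between them. Hapln1 (plus strand, 20631640 to 20696388) and Vcan (minus strand, 20761718 to 20860637) lie 65.3 kb apart on chromosome 2, again with no gene start between them. Bcan lies on the same chromosome (minus strand, 173454479 to 173467717), 21.2 kb from the link protein gene Hapln2. Acan (chromosome 1, plus strand, 132981034 to 133044416) lies 2.05 kb from the link protein gene Hapln3. The remaining members are Tnr on chromosome 13 (plus strand, 71751714 to 72172731), Tnc on chromosome 5 (minus strand, 77375851 to 77460712), and Cspg4 and Cspg5 on chromosome 8 (plus strand, 57264962 to 57300010 and 110220653 to 110234750).

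Promoter windows were available from RefSeq for 9 of the 10 genes, from 250 bases before to 50 bases after the start, in build GRCr8. Of these, 4 are shown because the results turn on them: Hapln1 (chr2:22366717-22367016, plus strand), Hapln4 (chr16:19375124-19375423, minus strand) and Bcan (chr2:175765265-175765564, minus strand), which were lower on the injured side at 1 and 5 weeks, and Ncan (chr16:19335657-19335956, plus strand), the neighbour of Hapln4, which was higher. Capitals mark a GC box (GGGCGG, in Bcan on the opposite strand) or a TATA box (TATAAA, in Ncan on the opposite strand).
Hapln1: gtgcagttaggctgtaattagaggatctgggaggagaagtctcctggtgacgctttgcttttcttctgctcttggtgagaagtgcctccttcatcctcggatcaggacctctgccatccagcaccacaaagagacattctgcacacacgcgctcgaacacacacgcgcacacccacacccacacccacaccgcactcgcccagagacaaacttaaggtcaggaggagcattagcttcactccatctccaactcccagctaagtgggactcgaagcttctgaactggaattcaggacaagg
Hapln4: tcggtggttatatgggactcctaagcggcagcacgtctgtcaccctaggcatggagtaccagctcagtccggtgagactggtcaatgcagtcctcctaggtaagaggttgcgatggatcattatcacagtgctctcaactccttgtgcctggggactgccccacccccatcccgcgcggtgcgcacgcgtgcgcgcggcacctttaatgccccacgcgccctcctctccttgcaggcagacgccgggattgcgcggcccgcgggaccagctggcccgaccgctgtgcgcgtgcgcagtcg
Bcan: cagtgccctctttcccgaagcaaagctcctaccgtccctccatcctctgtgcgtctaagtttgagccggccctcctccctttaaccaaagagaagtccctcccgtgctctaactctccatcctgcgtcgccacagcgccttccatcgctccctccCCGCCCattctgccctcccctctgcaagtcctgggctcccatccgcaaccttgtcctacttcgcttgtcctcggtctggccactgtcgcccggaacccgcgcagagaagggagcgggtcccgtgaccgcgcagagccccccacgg
Ncan: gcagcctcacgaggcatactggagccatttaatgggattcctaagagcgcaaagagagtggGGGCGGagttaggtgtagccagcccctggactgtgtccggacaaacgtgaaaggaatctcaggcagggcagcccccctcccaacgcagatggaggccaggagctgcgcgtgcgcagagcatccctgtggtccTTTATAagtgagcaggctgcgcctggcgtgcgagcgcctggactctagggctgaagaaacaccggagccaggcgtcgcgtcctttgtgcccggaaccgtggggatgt

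The letters of the AP-1 motif (TGANTCA) and of the cAMP response element (TGACGTCA), searched on both strands, were found in none of the 9 genes' windows. Among all 33469 RefSeq promoter windows of that length, 7.33% held the first and 1.83% the second. A GC box occurred in 33.1% of all windows and a TATA box in 14.2%. Of the windows shown, Bcan held 1 GC box, Ncan held 1 GC box and 1 TATA box, and Hapln1 and Hapln4 held neither. The CCAAT letters, present in 37.5% of all windows, were in none of those 4. GC content was 53.7% for Hapln1, 64.7% for Hapln4, 64% for Bcan and 61.7% for Ncan.

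On the contralateral side the genes covered a wide range of levels. Levels between genes were compared as CPM per kb of exon, averaged over all CL libraries. Hapln4 (29.2 CPM per kb) and Bcan (25.6 CPM per kb) stood highest, and their ranges of group means overlapped (25.7 to 32.6 for Hapln4 and 21.4 to 28.9 for Bcan). Tnc followed with 11.4 CPM per kb. Hapln1 (6.49 CPM per kb), Cspg4 (6.36 CPM per kb) and Ncan (5.63 CPM per kb) had overlapping ranges, as did Ncan and Cspg5 (4.59 CPM per kb). Tnr averaged 2.52, Vcan 0.983 and Acan 0.165 CPM per kb, each without overlap with the gene above it. Acan had 4 to 218 counts per library, while the other 9 genes had at least 104 counts in every library.

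**Figure D1:**
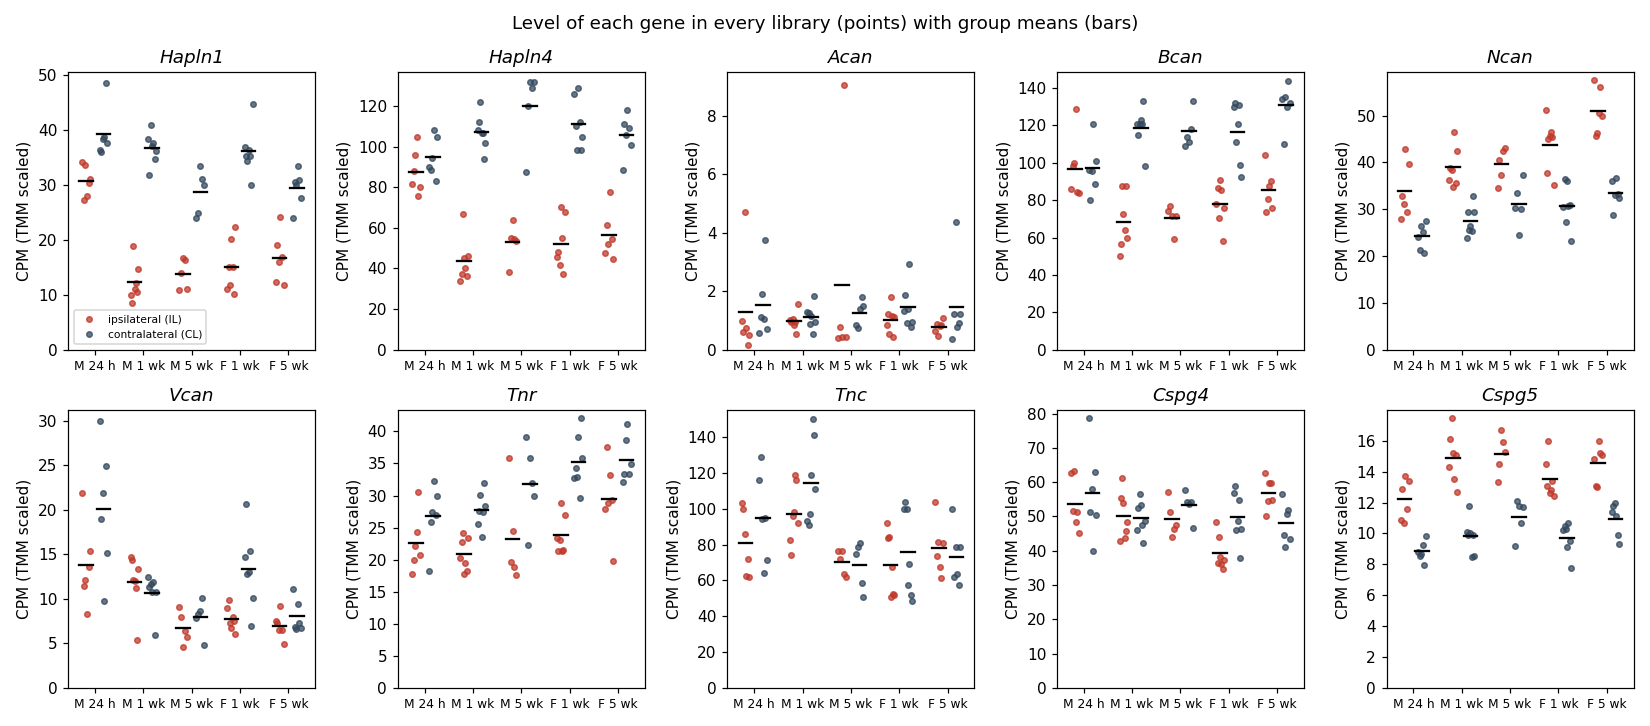
Level of the 10 genes in each library, in CPM on TMM-scaled library sizes (y axis, from 0), by arm (x axis; M male, F female, wk week), with IL libraries in red left of CL libraries in blue and bars at the group means. Hapln1, Hapln4 and Bcan sit lower in IL libraries at 1 and 5 weeks, Ncan and Cspg5 sit higher in IL in all 5 arms, and single Acan libraries reach 4.36, 4.71 and 9.07 CPM.

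Hapln1, which encodes the link protein HAPLN1 that is required for compact nets in the mouse brain, fell on the injured side at 1 and 5 weeks in both sexes. At 1 week in males the lowest, median and highest library had 8.49, 11.1 and 18.9 CPM in IL ganglia, against 31.9, 37.1 and 40.9 CPM in CL ganglia. The highest IL library was thus well below the lowest CL library. The log2 fold change (IL over CL) was -1.58 (SE 0.138, adjusted p = 2.78e-09, edgeR's quasi-likelihood test with Benjamini-Hochberg adjustment over all genes tested), with a decrease in 7 of 7 pairs. Libraries at 5 weeks in males had 10.8, 13.9, 16.6, 16.3 and 11.1 CPM in IL ganglia, against 24.0, 24.9, 33.4, 31.1 and 30.0 CPM in CL ganglia. The sides did not overlap there either, and the log2 fold change was -1.06 (SE 0.166, adjusted p = 2.25e-05). Female IL ganglia ran from 10.1 over a median of 15.1 to 22.3 CPM at 1 week, and CL ganglia from 29.9 over 35.2 to 44.8 CPM. The log2 fold change was -1.26 (SE 0.142, adjusted p = 3.71e-09), again without overlap. By 5 weeks the female values were 11.8, 16.5 and 24.2 CPM in IL and 24.0, 30.3 and 33.5 CPM in CL ganglia (log2 fold change -0.82, SE 0.153, adjusted p = 5.43e-05). Here the highest IL library just exceeded the lowest CL library, and 6 of 6 pairs were lower.

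At 24 h Hapln1 already had lower values in all 6 injured ganglia, but the test was not passed. IL libraries had 27.2, 30.7 and 34.2 CPM (lowest, median, highest), against 36.0, 38.1 and 48.6 CPM in CL libraries. The sides did not overlap, and 6 of 6 pairs were lower. The log2 fold change was -0.36 (SE 0.148, adjusted p = 0.108). With replicate number, which joins the ganglia of a pair, as a block in the fit it was -0.35 (adjusted p = 0.0149), and with only the males at 24 h in the fit -0.35 (adjusted p = 0.00907).

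Hapln4 encodes the brain link protein that partners with brevican in nets of the mouse brain stem and cerebellum. It was not called at 24 h and was lower at both later times in both sexes. At 24 h IL libraries had 75.8, 84.6 and 105 CPM (lowest, median, highest), against 83.0, 92.3 and 108 CPM in CL libraries. The sides overlapped over most of their range (log2 fold change -0.11, SE 0.127, adjusted p = 0.624). Male ganglia at 1 week had 33.9, 40.4 and 66.9 CPM in IL and 94.0, 107 and 122 CPM in CL. This was a log2 fold change of -1.29 (SE 0.132, adjusted p = 4.13e-08), with no overlap and 7 of 7 pairs lower. At 5 weeks the male libraries held 38.3, 54.8, 63.8, 54.6 and 53.7 CPM in IL and 87.4, 120, 132, 129 and 132 CPM in CL. The lowest CL library, at 87.4 CPM, still lay above every IL library (log2 fold change -1.18, SE 0.156, adjusted p = 3.51e-06). In females the IL values were 37.1, 48.0 and 70.1 CPM at 1 week, against 98.2, 110 and 129 CPM in CL. At 5 weeks they were 44.7, 53.4 and 77.5 CPM in IL and 88.3, 108 and 118 CPM in CL. Neither female comparison showed overlap, and the log2 fold changes were -1.09 (SE 0.119, adjusted p = 1.92e-09) at 1 week and -0.90 (SE 0.129, adjusted p = 7.53e-07) at 5 weeks.

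Bcan, the brevican gene, behaved like Hapln4 in direction and time but with smaller changes. At 24 h IL libraries had 84.0, 92.3 and 129 CPM, against 79.9, 96.0 and 121 CPM in CL libraries (log2 fold change -0.00, 95% interval -0.22 to 0.22, adjusted p = 0.993). The sides overlapped and 3 of 6 pairs were higher. Male libraries at 1 week had 50.1, 63.9 and 87.8 CPM in IL and 98.3, 121 and 133 CPM in CL. The log2 fold change was -0.80 (SE 0.103, adjusted p = 1.04e-06) without overlap. At 5 weeks the male IL libraries had 74.0, 76.8, 71.6, 59.2 and 71.3 CPM, and the CL libraries had 109, 114, 111, 118 and 133 CPM. The sides were again apart (log2 fold change -0.73, SE 0.123, adjusted p = 5.91e-05). Female IL libraries had 57.9, 77.9 and 90.8 CPM at 1 week, against 92.5, 121 and 132 CPM in CL, and at 5 weeks 73.7, 84.0 and 104 CPM in IL, against 110, 133 and 144 CPM in CL. Log2 fold changes were -0.58 (SE 0.105, adjusted p = 1.96e-05) at 1 week and -0.62 (SE 0.113, adjusted p = 3.83e-05) at 5 weeks, with no overlap at either time. With the ribosomal RNA share as a covariate the female 1 week value was -0.45 (adjusted p = 0.0868), while Hapln1 and Hapln4 kept their calls there.

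Most of 9 markers of large myelinated sensory neurons were lower in the same ganglia. Their summed level at 1 week was 9990 to 14800 CPM in IL and 18200 to 19900 CPM in CL ganglia of males, and 9810 to 14500 CPM in IL and 18300 to 19900 CPM in CL ganglia of females. At 5 weeks the ranges were 10600 to 13000 CPM in IL and 16500 to 20400 CPM in CL ganglia of males, and 11900 to 13900 CPM in IL and 18600 to 20500 CPM in CL ganglia of females. At 24 h they overlapped (17700 to 21900 CPM in IL and 19300 to 20800 CPM in CL). The neurofilament genes Nefm and Nefh held most of that sum, with means of 5660 and 4570 CPM in IL and 10200 and 7320 CPM in CL ganglia of males at 1 week. The neurotrophin receptor gene Ntrk3 (-0.62, SE 0.0437) and the transcription factor gene Etv1 (-0.69, SE 0.0639) also had lower levels there on the log2 scale, while Spp1, Calb1 and Lmcd1 were higher. In females at 5 weeks Ntrk3 was not called (0.09, SE 0.0591). Of the 9 markers, 6 were lower and 3 higher at 1 week in each sex, 5 lower and 1 higher at 5 weeks in males, 5 lower and 2 higher at 5 weeks in females, and 1 lower and 1 higher at 24 h. None of the 9 was at 0 in a group, and their part in the falls of Hapln1, Hapln4 and Bcan was not tested. General neuronal markers also had calls in both directions. At 5 weeks in both sexes Snap25, Rbfox3, Isl1 and Thy1 were lower, Tubb3, Prph and Stmn2 were higher, and Elavl4 and Uchl1 were not called. Females at 1 week had the same calls, with Elavl4 lower and Uchl1 higher in addition. Snap25 had log2 fold changes of -0.62 in males and -0.73 in females at 5 weeks. Some cartilage and bone markers were called as well, and Hapln1 is also the link protein gene of cartilage. Of 10 tested, 1 was higher and 3 lower at 1 week in males, 2 higher and 1 lower at 5 weeks in males, 2 higher and 2 lower at 1 week in females, and 4 lower at 5 weeks in females, while 3 were lower at 24 h. Over all genes tested, 47% and 34.7% were called in males at 1 and 5 weeks, 45.7% and 42% in females, and 14.1% at 24 h. In the 4 later arms the share of these markers called was thus no larger than that of all genes. At 24 h, with 3 of 10 called, it was larger than the 14.1% of all genes. Those 3 were Bglap, Dmp1 and Ibsp, with log2 fold changes of -3.28, -3.27 and -1.80. Cnmd, the chondromodulin gene, fell in all 4 later arms. The summed level of all 12 in males was 193 to 284 CPM in IL and 280 to 346 CPM in CL ganglia at 1 week, and 158 to 301 CPM in IL and 208 to 242 CPM in CL ganglia at 5 weeks. In females it was 203 to 232 CPM in IL and 206 to 366 CPM in CL ganglia at 1 week, and 124 to 172 CPM in IL and 175 to 221 CPM in CL ganglia at 5 weeks. Matn1 was at 0 in the IL groups of males at 5 weeks and of females. The part of cartilage markers in the Hapln1 values was not tested. In bulk ganglia, fewer cells of a type and less RNA per cell cannot be told apart.

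Ncan, which encodes neurocan, a lectican of growing axons and young nets in the rodent brain, rose on the injured side in all 5 arms, 24 h included. At 24 h IL libraries had 27.9, 31.9 and 42.8 CPM, against 20.7, 24.6 and 27.4 CPM in CL libraries. The lowest IL value lay just above the highest CL value, 6 of 6 pairs were higher, and the log2 fold change was 0.49 (SE 0.106, adjusted p = 0.00102). Male ganglia at 1 week had 34.8, 38.4 and 46.5 CPM in IL and 23.9, 26.3 and 32.8 CPM in CL (log2 fold change 0.50, SE 0.0836, adjusted p = 2.51e-05), without overlap. At 5 weeks in males the libraries had 34.6, 40.6, 37.2, 42.5 and 43.1 CPM in IL, against 30.2, 33.5, 24.5, 30.1 and 37.4 CPM in CL. The highest CL library exceeded 2 IL libraries, yet 5 of 5 pairs were higher (log2 fold change 0.35, SE 0.0999, adjusted p = 0.00843). Female IL libraries had 35.1, 45.4 and 51.2 CPM at 1 week and 45.7, 50.3 and 57.5 CPM at 5 weeks. Female CL libraries had 23.2, 30.7 and 36.5 CPM at 1 week and 28.7, 33.1 and 36.7 CPM at 5 weeks. The sides overlapped at 1 week only, with log2 fold changes of 0.51 (SE 0.0957, adjusted p = 3.03e-05) at 1 week and 0.61 (SE 0.103, adjusted p = 1.01e-05) at 5 weeks.

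Among the lecticans, Ncan rose in all 5 arms and Bcan fell at 1 and 5 weeks but not at 24 h. Within a library the ratio of Ncan to Bcan, both as CPM per kb, had a median of 0.29 in IL and 0.225 in CL ganglia at 24 h. At 1 week it was 0.599 in IL and 0.187 in CL ganglia of males, and 0.475 in IL and 0.219 in CL ganglia of females. At 5 weeks it was 0.461 in IL and 0.242 in CL ganglia of males, and 0.522 in IL and 0.22 in CL ganglia of females. The libraries of the sides did not overlap in any arm: the lowest IL ratio was 0.271 at 24 h, where the highest CL ratio was 0.242. Bcan made up a median of 58.8% of the summed lectican level per kb in IL ganglia of males at 1 week, against 81.7% in CL ganglia, and Ncan made up 35.2% in IL, against 15.2% in CL.

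The ratio of Hapln4 to its chromosomal neighbour Ncan also differed between sides. The facing ends of both genes are their 3′ ends and the strand setting of counting is not given in the sources used here, so the part of reads that run past either end was not tested. Its median was 3.71 in IL and 5.53 in CL ganglia at 24 h, where the IL libraries (2.85 to 4.35) lay below the CL libraries (5.02 to 6.05). In males it was 1.45 in IL and 5.73 in CL at 1 week, and 1.81 in IL and 5.05 in CL at 5 weeks. In females it was 1.67 in IL and 5.1 in CL at 1 week, and 1.48 in IL and 4.55 in CL at 5 weeks. At 1 and 5 weeks the highest IL ratio of any arm was 2.72 and the lowest CL ratio was 3.45. These ratios restate the calls above within single libraries and were not tested on their own.

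**Figure D2:**
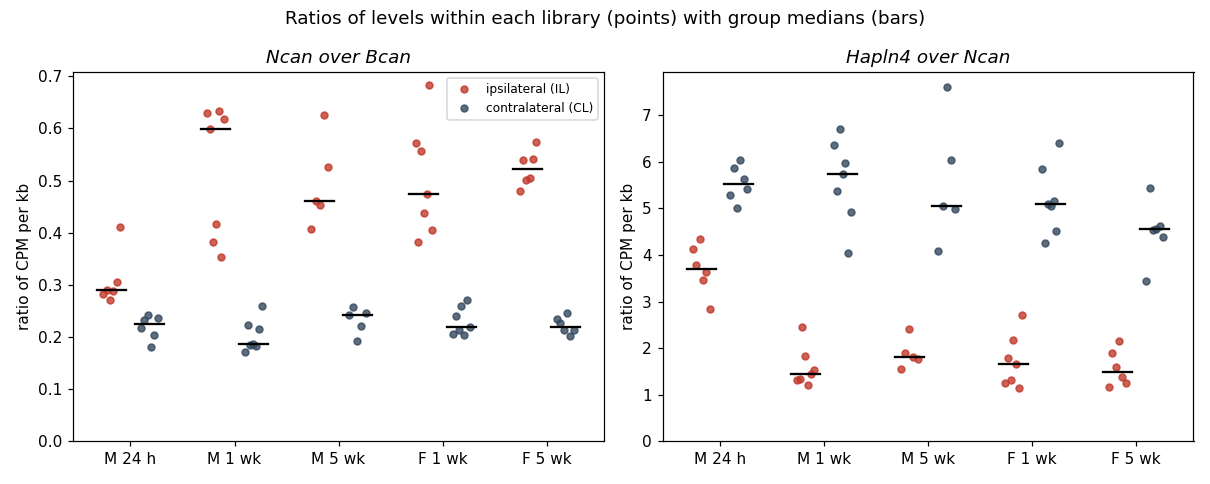
Ratio of Ncan to Bcan (left) and of Hapln4 to Ncan (right), from CPM per kb of exon within each library (y axes, from 0), by arm (x axis), with IL in red left of CL in blue and bars at the group medians. IL libraries lie above CL libraries for the first ratio and below them for the second in all 5 arms, with the smallest gaps at 24 h.

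Cspg5 encodes neuroglycan C, a transmembrane chondroitin sulfate proteoglycan of neurons, and rose in all 5 arms with little spread. At 24 h IL libraries had 10.7, 12.2 and 13.7 CPM, against 7.98, 8.72 and 9.8 CPM in CL libraries (log2 fold change 0.47, SE 0.0805, adjusted p = 4.74e-05). At 1 week the male values were 12.7, 15.1 and 17.5 CPM in IL and 8.49, 9.91 and 11.8 CPM in CL (log2 fold change 0.61, SE 0.0783, adjusted p = 6.28e-07). Both comparisons were free of overlap. At 5 weeks the male libraries had 13.3, 14.5, 16.7, 15.9 and 15.3 CPM in IL, against 9.16, 12.1, 11.8, 10.7 and 11.7 CPM in CL (log2 fold change 0.45, SE 0.0941, adjusted p = 0.000522). Female values at 1 week were 12.4, 13.1 and 16 CPM in IL and 7.79, 10.2 and 10.7 CPM in CL, with a log2 fold change of 0.48 (SE 0.0734, adjusted p = 1.17e-06). At 5 weeks they were 13.0, 15.0 and 16 CPM in IL and 9.29, 11.2 and 12 CPM in CL, with a log2 fold change of 0.41 (SE 0.0792, adjusted p = 6.01e-05). Every IL library was above every CL library of its arm.

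Tnr, the gene of the net's cross-linker tenascin-R, was lower at 1 week in both sexes and at 5 weeks in males. At 1 week IL libraries had 17.8, 20.2 and 24.1 CPM in males, against 23.5, 27.6 and 31.9 CPM in CL, a log2 fold change of -0.41 (SE 0.134, adjusted p = 0.0145). In females at 1 week they had 21.3, 23.1 and 28.9 CPM, against 29.6, 34.3 and 42.1 CPM in CL, a log2 fold change of -0.57 (SE 0.117, adjusted p = 0.000124). The female sides did not overlap, the male sides did slightly, and all 7 pairs of either sex were lower. At 5 weeks in males the libraries had 35.8, 19.7, 24.4, 18.9 and 17.6 CPM in IL, against 39.1, 22.3, 35.9, 31.9 and 30.0 CPM in CL (log2 fold change -0.46, SE 0.161, adjusted p = 0.0303). The sides overlapped, but all 5 pairs were lower. That call was lost when any of 5 libraries was left out (CL replicates 1 and 3, IL replicates 2, 4 and 5), with adjusted p up to 0.109. It was also lost with no filter on low counts (adjusted p = 0.0727), with that arm fitted alone (adjusted p = 0.152), when a covariate for ribosomal RNA was added (adjusted p = 0.0543) and against the CL libraries of males at 1 week (adjusted p = 0.162). In females at 5 weeks the values were 19.8, 29.0 and 37.5 CPM in IL and 32.1, 34.1 and 41.1 CPM in CL (log2 fold change -0.27, SE 0.126, adjusted p = 0.0789), and the replicate block gave -0.29 (adjusted p = 0.02). At 24 h the log2 fold change was -0.24 (SE 0.128, adjusted p = 0.223).

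Tnc encodes tenascin-C, a matrix glycoprotein of developing and injured tissue made by fibroblasts and glia. It had no call between sides in any arm of the main fit, which leaves out the pairing of the sides. Group medians ranged from 67.4 to 96.0 CPM in IL and from 69.2 to 111 CPM in CL, and libraries overlapped throughout. Male log2 fold changes were -0.23 at 24 h, -0.24 at 1 week and 0.03 at 5 weeks (standard errors 0.209, 0.13 and 0.158). Female values were -0.14 at 1 week and 0.09 at 5 weeks (standard errors 0.195 and 0.21). Although uncalled, the direction was the same in all pairs of 3 arms: lower in 6 of 6 at 24 h and in 7 of 7 at 1 week in males, and higher in 6 of 6 at 5 weeks in females. With the replicate block the values were -0.22 at 24 h (adjusted p = 0.00212), -0.24 at 1 week in males (adjusted p = 0.000156) and -0.12 at 1 week in females (adjusted p = 0.0336).

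The side used as control itself differed between weeks for Tnc in males. CL libraries had 74.7, 78.7, 81.1, 58.3 and 50.8 CPM at 5 weeks, against 91.1, 111 and 150 CPM (lowest, median, highest) at 1 week. The weeks did not overlap, and the log2 difference (5 weeks over 1 week) was -0.74 (SE 0.147, adjusted p = 0.00204). Tnc was the 1 member of 10 called in that comparison, in which 13.5% of 18980 genes were called (7.34% higher and 6.2% lower). Set against the CL libraries of the other week, the injured side was higher at 1 week (log2 fold change 0.50, adjusted p = 0.00776) and lower at 5 weeks (log2 fold change -0.71, adjusted p = 0.000398).

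Vcan encodes versican, the lectican of loose connective tissue and vessel walls, and it was lower in 1 arm, females at 1 week. There IL libraries had 6.09, 7.55 and 9.87 CPM, against 6.9, 13.0 and 20.6 CPM in CL libraries (log2 fold change -0.78, SE 0.217, adjusted p = 0.00319). The IL libraries sat within a narrow band that the lowest CL library shared, and 6 of 7 pairs were lower. The call was not kept with the ribosomal RNA share as a covariate (-0.12, adjusted p = 0.864) or against the CL libraries of females at 5 weeks (-0.04, adjusted p = 0.896). The CL libraries of females had 6.63, 7.06 and 11.1 CPM at 5 weeks, a log2 difference from 1 week of -0.74 (SE 0.228, adjusted p = 0.0307). Vcan was the 1 member called in that comparison of weeks, with 10.7% of 18125 genes called (3.13% higher and 7.55% lower), and leaving out any of 7 libraries lost the call (CL replicates 2, 3, 5 and 6 at 5 weeks and 1, 2 and 5 at 1 week, adjusted p up to 0.0954). At 24 h IL libraries had 8.29, 12.8 and 21.9 CPM, against 9.72, 20.4 and 29.9 CPM in CL (log2 fold change -0.55, SE 0.225, adjusted p = 0.102). The replicate block gave -0.53 there (adjusted p = 0.00438). Log2 fold changes in the remaining arms were 0.15 and -0.24 in males at 1 and 5 weeks (standard errors 0.193 and 0.245), and -0.20 in females at 5 weeks (SE 0.244).

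Cspg4 encodes NG2, a membrane proteoglycan of pericytes and of glial progenitors, and its side difference changed with time in females. At 1 week IL libraries had 34.8, 37.3 and 48.3 CPM, against 37.9, 48.7 and 58.9 CPM in CL libraries (log2 fold change -0.34, SE 0.111, adjusted p = 0.0109). At 5 weeks IL libraries had 50.1, 57.1 and 62.7 CPM, against 41.1, 47.5 and 56.4 CPM in CL libraries (log2 fold change 0.24, SE 0.119, adjusted p = 0.0997). Libraries overlapped at both times, yet 7 of 7 pairs were lower at 1 week and 6 of 6 were higher at 5 weeks. With the replicate block the 5 week value was 0.25 (adjusted p = 0.0106). The difference of the side effects (5 weeks over 1 week) was itself called at 0.59 (SE 0.163, adjusted p = 0.0125), the 1 member of 10 called in a contrast in which 13.5% of 18125 genes were (7.66% higher and 5.88% lower). With the ribosomal RNA share as a covariate the 1 week value was -0.07 (adjusted p = 0.842), and the difference of side effects was not refitted with it. In males Cspg4 had log2 fold changes of -0.09, 0.02 and -0.11 at 24 h, 1 week and 5 weeks (standard errors 0.119, 0.0782 and 0.0937).

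Some markers of vessel and connective tissue cells were higher in females at 5 weeks, where Cspg4 was called with the replicate block or with that arm fitted alone (adjusted p = 0.0229) and not otherwise. Of 10 pericyte and smooth muscle markers, 5 were higher there, led by Abcc9 (log2 fold change 0.93, SE 0.118) and Rgs5 (log2 fold change 0.70, SE 0.132), and 1 was lower at 1 week. Their summed level was 246 to 396 CPM in IL and 192 to 290 CPM in CL ganglia at 5 weeks, and 223 to 341 CPM in IL and 235 to 573 CPM in CL ganglia at 1 week. Of 8 endothelial markers 4 were also higher at 5 weeks, led by Tek (log2 fold change 0.40, SE 0.0774), with summed levels of 194 to 271 CPM in IL and 179 to 224 CPM in CL, as were 7 of 10 fibroblast markers. Over all genes tested in females at 5 weeks, 42% were called (22.9% higher and 19.1% lower). In males at 5 weeks Abcc9 was higher too (log2 fold change 0.74, SE 0.125), with Cspg4 at -0.11. No marker of these lists was at 0 in a group. Their part in the Cspg4 result was not tested.

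Acan, the aggrecan gene, is the main lectican of cartilage and of nets in the brain, and it was close to the detection limit in these ganglia. In some arms single libraries stood apart and moved its values. At 5 weeks in males the libraries had 0.412, 0.763, 0.438, 9.07 and 0.445 CPM in IL, against 0.842, 0.732, 1.39, 1.8 and 1.49 CPM in CL. IL replicate 4 was the highest of all 62 libraries, while the other 4 IL libraries had at most 0.763 CPM, below 4 of the 5 CL libraries. The log2 fold change was 0.85 (SE 0.658, adjusted p = 0.352), and without IL replicate 4 it was -1.23 (adjusted p = 0.00946). Elsewhere the log2 fold change was -0.34 at 24 h (SE 0.562), -0.19 in males at 1 week (SE 0.574), -0.52 in females at 1 week (SE 0.521) and -0.91 in females at 5 weeks (SE 0.585), each uncalled. Leaving out one library at a time gave -1.40 to 0.15 at 24 h, where IL replicate 3 (4.71 CPM) and CL replicate 5 (3.76 CPM) were high. It gave -0.71 to -0.26 in females at 1 week, where CL replicate 5 was high (2.92 CPM), and -1.12 to -0.18 in females at 5 weeks, where CL replicate 3 was high (4.36 CPM).

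Cartilage and bone genes were compared in the 5 libraries above 2 CPM of Acan, a bound set after the values were seen. Col10a1, a collagen gene of hypertrophic cartilage, had a median of 8.76 CPM in these 5 libraries and 1.73 CPM in all others, of which the highest reached 3.45 CPM, above 2 of the 5 (2.84 and 3.08 CPM). Col2a1, the main cartilage collagen gene, had a median of 124 CPM in the 5 and 52.3 CPM in the others, with overlap. Ibsp, a bone matrix gene, had a median of 6.94 CPM in the 5 and 2.4 CPM in the others, which reached 9.7 CPM and so overlapped as well. Comp, a cartilage matrix gene, had medians of 14.4 CPM in the 5 and 13.7 CPM in the others, and the collagen gene Col9a2 had 19.3 CPM in the 5 and 23.3 CPM in the others. Matn1, a cartilage matrix gene, had a median of 0 in both sets. Across all libraries the summed level of the 12 cartilage and bone markers was 124 to 483 CPM in IL and 175 to 532 CPM in CL groups, with 10 of the 12 tested. Their part in the Acan values was not tested.

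Members were counted in the main fits, which leave out the pairing of the sides. At 24 h 2 of all 10 differed between sides, both higher (Ncan and Cspg5). Of 18125 genes, 14.1% differed there (8.23% higher and 5.9% lower). At 1 week in males 6 differed, 2 higher and 4 lower, against 47% of 18980 genes (23.6% higher and 23.4% lower). At 5 weeks in males 6 differed, 2 higher and 4 lower, against 34.7% (16% higher and 18.7% lower). In females 8 differed at 1 week, 2 higher and 6 lower, against 45.7% of 18125 genes (23.9% higher and 21.8% lower). At 5 weeks 5 differed, 2 higher and 3 lower, against 42% (22.9% higher and 19.1% lower). With so large a share of all genes called, the number of members called says little about these genes as a group, and the results lie in which members moved and in which direction. The members' median log2 fold change was -0.17 at 24 h, -0.22 and -0.18 in males at 1 and 5 weeks, and -0.55 and -0.24 in females at 1 and 5 weeks. Over all genes tested the median lay between -0.009 and 0.015.

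Counts of members called depended on the fit in both directions. With the replicate block 5 members were called at 24 h, because Hapln1, Vcan and Tnc were then called lower, and 3146 of 18125 genes were called in place of 2560. With the ribosomal RNA share as a covariate 5 were called in females at 1 week, because Bcan, Vcan and Cspg4 were not, and the count over all genes there was 4060 in place of 8276. Libraries of the sides did not overlap for 3, 5 and 4 members in males at 24 h, 1 week and 5 weeks, while this held for 5.45%, 22.1% and 21% of all genes. In females it held for 5 members at 1 week and 4 at 5 weeks, and for 20.9% and 21.8% of all genes.

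**Figure D3:**
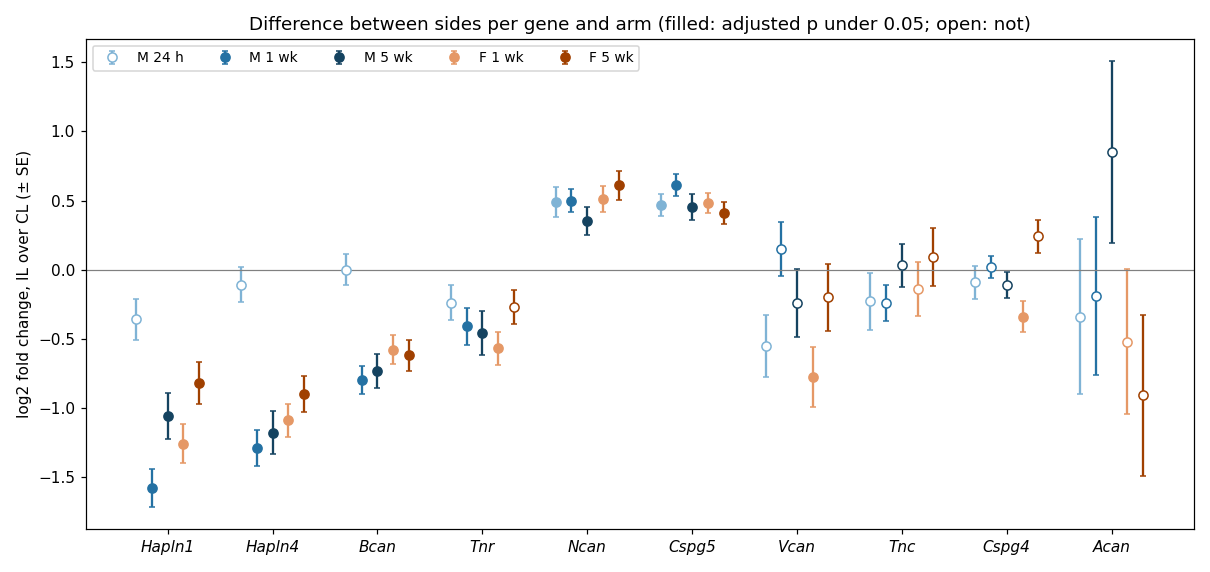
Log2 fold change between sides (IL over CL, y axis) of the 10 genes (x axis) in the 5 arms, from the edgeR quasi-likelihood fit, with bars of 1 standard error and filled points for an adjusted p under 0.05. Hapln1, Hapln4, Bcan and Tnr lie below 0 at 1 and 5 weeks, Ncan and Cspg5 lie between 0.35 and 0.61 in every arm, and Acan has standard errors of 0.521 to 0.658.

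The timing of the changes differed between members. The difference of side effects between 1 week and 24 h in males (1 week over 24 h) was called for Hapln1 at -1.22 (SE 0.206, adjusted p = 1.06e-05), Hapln4 at -1.18 (SE 0.184, adjusted p = 2.8e-06) and Bcan at -0.80 (SE 0.155, adjusted p = 0.000107). These 3 of 10 members compare with 23% of 19209 genes called in that contrast (11% higher and 12% lower). For Ncan the difference was 0.01 (95% interval -0.26 to 0.28) and for Cspg5 0.14 (95% interval -0.08 to 0.36), neither called. Vcan had 0.70 (SE 0.303, adjusted p = 0.09), and 0.66 with the replicate block (adjusted p = 0.00382). The males at 24 h and at 1 week lie in different tables, so time and table cannot be told apart in this contrast.

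Between 1 and 5 weeks fewer differences were called. In males edgeR called 0 of the 10 (1 at an unadjusted p under 0.05, and 0 with limma-voom or DESeq2), with 0.211% of 18980 genes called (0.079% higher and 0.132% lower). Hapln1 came nearest with a difference of 0.52 (95% interval 0.10 to 0.94, unadjusted p = 0.0238, adjusted p = 0.379). In females Hapln1 had a difference of 0.44 (SE 0.208, adjusted p = 0.173). With the replicate block 1 member was called in males, Tnc at 0.28 (adjusted p = 0.0408), with 497 of 18980 genes called. In females the block called 4, which were Cspg4, Hapln1 at 0.44 (adjusted p = 0.033), Vcan at 0.55 (adjusted p = 0.0404) and Tnc at 0.21 (adjusted p = 0.0275), with 3217 of 18125 genes called. Hapln4 differed by 0.12 (95% interval -0.28 to 0.51) in males and 0.19 (95% interval -0.15 to 0.53) in females, and Bcan by 0.07 (95% interval -0.24 to 0.38) and -0.03 (95% interval -0.34 to 0.27).

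The side effects of females and males were compared at matched weeks (females over males). At 1 week edgeR called 0 of the 10, with 2 at an unadjusted p under 0.05 and 1.11% of 19209 genes called (0.416% higher and 0.698% lower). Limma-voom and DESeq2 called 0 as well. Those 2 were Vcan at -0.94 (SE 0.297, adjusted p = 0.12) and Cspg4 at -0.37 (SE 0.142, adjusted p = 0.24). With the replicate block both were called, at -0.89 (adjusted p = 0.00177) and -0.37 (adjusted p = 0.0119), with 517 of 19209 genes called. At 5 weeks all 3 tools again called 0, with 2 in edgeR at an unadjusted p under 0.05 (Acan at -1.80 and Cspg4 at 0.32) and 2.11% of genes called (1.55% higher and 0.562% lower). Among the members that changed in both sexes, at 1 week Hapln1 differed by 0.31 (95% interval -0.08 to 0.71), Hapln4 by 0.19 (95% interval -0.16 to 0.53), Bcan by 0.21 (95% interval -0.09 to 0.50), Ncan by 0.00 (95% interval -0.29 to 0.29) and Cspg5 by -0.14 (95% interval -0.35 to 0.07). Sex and table cannot be told apart in these contrasts.

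The enzymes and receptors around the net moved in both directions. The counts in the 7 lists, and in the marker lists named with them, stand beside the shares of all genes given above (14.1% called at 24 h and 34.7% to 47% in the later arms). No list was tested against other genes. In a list of 16 genes of hyaluronan and its other link and receptor proteins, 6 of 15 tested rose and 1 fell at 24 h. In males 5 of 16 rose and 3 fell at 1 week, and 5 rose and 1 fell at 5 weeks. In females 5 of 15 rose and 3 fell at 1 week, and 7 rose and 3 fell at 5 weeks. Cd44, the main hyaluronan receptor gene, rose in every arm, by 0.56 at 24 h (SE 0.0646) and by up to 1.00 in females at 1 week (SE 0.06). Has1, a hyaluronan synthase gene, rose in every arm and averaged 3.3 CPM in IL and 0.216 CPM in CL ganglia of males at 1 week, and 4.31 CPM in IL and 0.179 CPM in CL ganglia of females (adjusted p = 2.85e-08 in males and 1.7e-13 in females). Has3, another synthase gene, fell by 0.85 on the log2 scale at 24 h (SE 0.159, adjusted p = 0.000159) and also fell in all later arms except males at 5 weeks (-0.27, adjusted p = 0.198). Hapln2, the link protein gene next to Bcan, fell at both later times. Its log2 fold change at 1 week was -0.91 in males (SE 0.136) and -0.71 in females (SE 0.113), and at 5 weeks -0.84 in males (SE 0.158) and -1.10 in females (SE 0.122).

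Genes that build chondroitin sulfate chains had calls in both directions in every arm. Of 22 tested, 1 rose and 3 fell at 24 h, 5 rose and 5 fell at 1 week and 6 rose and 5 fell at 5 weeks in males, and 3 rose and 4 fell at 1 week and 6 rose and 6 fell at 5 weeks in females. Ust, the uronyl 2-O-sulfotransferase gene, fell in every arm. Its log2 fold change was -0.29 at 24 h (SE 0.0665) and between -0.84 (females at 1 week, SE 0.0622) and -0.76 (females at 5 weeks, SE 0.0673) later. Chst15, which adds the 6-sulfate of chondroitin sulfate E, fell in every arm, at 1 week with log2 fold changes of -0.55 in males (SE 0.0736) and -0.56 in females (SE 0.0833). Chst11, a chondroitin 4-O-sulfotransferase gene, was higher in every arm, at 1 week by 0.41 in males (SE 0.0438) and 0.34 in females (SE 0.0534).

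Receptors and binding partners of these proteoglycans had a median log2 fold change of -0.06 at 24 h, -0.17 in males at either later time, and -0.32 and -0.00 in females at 1 and 5 weeks. Of 18 tested, 1 rose and 4 fell at 24 h, 2 rose and 11 fell at 1 week and 1 rose and 9 fell at 5 weeks in males, and 1 rose and 12 fell at 1 week and 3 rose and 5 fell at 5 weeks in females. The Nogo receptor genes Rtn4r and Rtn4rl1, whose products include receptors for chondroitin sulfate in the mouse, fell in every arm. At 24 h their log2 fold changes were -0.68 (SE 0.103) and -0.49 (SE 0.101). Itgb6, an integrin gene, also fell in every arm and had 3.7 CPM in IL and 11.6 CPM in CL ganglia of males at 1 week (log2 fold change -1.64, SE 0.145). Itgb1, the common beta-1 integrin gene, rose in every arm, by 0.23 at 24 h (SE 0.0442) and 0.65 in females at 1 week (SE 0.041).

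Among 19 genes of lectican-cleaving proteases and their inhibitors, 6 rose and 2 fell at 24 h, 10 rose and 1 fell at 1 week and 6 rose at 5 weeks in males, and 8 rose and 2 fell at 1 week and 11 rose at 5 weeks in females. Adamts8 led at 24 h, with 41.8 CPM in IL and 11.9 CPM in CL ganglia (log2 fold change 1.81, SE 0.217). At the later times it had log2 fold changes between -0.13 and 0.20, none called. Adamts4, a main aggrecan- and brevican-cleaving protease gene, rose in every arm, at 1 week by 1.40 in males (SE 0.154) and 1.69 in females (SE 0.243). The inhibitor gene Timp1 also rose in every arm, and at 1 week it had log2 fold changes of 1.04 in males (SE 0.0636) and 0.99 in females (SE 0.11). Macrophage markers rose in the same ganglia: 7 of 9 at 1 week in either sex and at 5 weeks in females, against 3 of 9 with 1 lower at 5 weeks in males and 0 at 24 h. Their summed level at 1 week was 121 to 257 CPM in IL and 46.5 to 125 CPM in CL ganglia of males, and 104 to 208 CPM in IL and 51.1 to 67.2 CPM in CL ganglia of females. At 5 weeks it was 83.4 to 183 CPM in IL and 74.9 to 144 CPM in CL ganglia of males, and 85.4 to 142 CPM in IL and 32.1 to 107 CPM in CL ganglia of females. At 24 h it was 76.3 to 126 CPM in IL and 76.6 to 120 CPM in CL ganglia, and no marker was at 0 in a group. Ctss, a cathepsin gene of the cleavage list that macrophages also express, had log2 fold changes of 1.41 in males at 1 week (SE 0.221), 1.44 in females at 1 week (SE 0.252) and 1.51 in females at 5 weeks (SE 0.274), and was not called in males at 5 weeks (0.66, SE 0.262) or at 24 h (0.12, SE 0.269). The part of macrophage markers in the cleavage list was not tested.

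Other proteoglycans differed by class. Of 13 heparan sulfate proteoglycan genes, 1 rose at 24 h, 7 rose and 1 fell at 1 week and 6 rose and 1 fell at 5 weeks in males, and 6 rose and 1 fell at 1 week and 9 rose and 1 fell at 5 weeks in females. Sdc1, the syndecan-1 gene, had log2 fold changes of 2.07 and 2.43 in males at 1 and 5 weeks (standard errors 0.132 and 0.162), and of 2.42 and 2.33 in females (standard errors 0.142 and 0.157). Gpc1, a glypican gene, rose by 0.69 to 0.93 in the same arms. Of 11 small leucine-rich proteoglycan genes, which mark connective tissue, 1 was higher at 1 week in males (Prelp) and 3 were higher at 5 weeks in females (Aspn, Prelp and Lum). Fibroblast markers moved with the last of these: 7 of 10 were higher in females at 5 weeks, with summed levels of 1910 to 2920 CPM in IL and 1060 to 1880 CPM in CL ganglia, and the part of this shift was not tested. Tnxb, another tenascin gene, was not analysed here.

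Genes associated with net-bearing neurons or with net assembly had a median log2 fold change of -0.04 at 24 h, -0.13 and -0.39 in males at 1 and 5 weeks, and -0.25 and 0.04 in females. Of 15 tested, 2 rose at 24 h, 3 rose and 8 fell at 1 week and 1 rose and 6 fell at 5 weeks in males, and 1 rose and 6 fell at 1 week and 3 rose and 6 fell at 5 weeks in females. Pvalb, the parvalbumin gene, had a log2 fold change at 1 week of -0.68 in males (SE 0.0995) and -0.57 in females (SE 0.0666). Crtac1, a secreted antagonist of Nogo receptor signalling, rose in both sexes. Its log2 fold change at 1 week was 1.25 in males (SE 0.1) and 1.33 in females (SE 0.21), and at 5 weeks 1.07 in males (SE 0.119) and 0.99 in females (SE 0.226). Nptx2, a synaptic pentraxin gene, rose in males by 0.65 at 24 h (SE 0.149) and 0.45 at 1 week (SE 0.066). It was not called in males at 5 weeks (0.04, SE 0.079) or in females at 1 week (0.24, SE 0.137) and 5 weeks (0.22, SE 0.149).

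**Figure D4:**
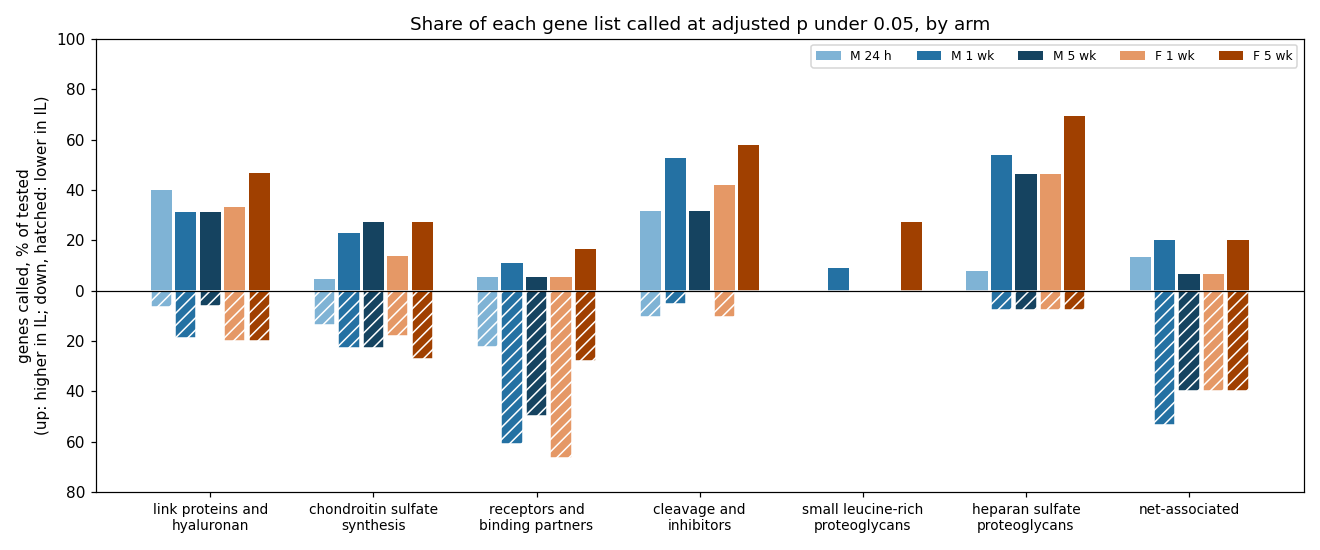
Percent of tested genes in 7 lists around the 10 genes that passed an adjusted p under 0.05 (y axis, upward for higher in IL, downward and hatched for lower in IL), by list (x axis) and arm (bar colour). Over all genes tested the shares ran from 8.23% at 24 h to 23.9% higher and from 5.9% to 23.4% lower, and the small leucine-rich list has calls in 2 arms.

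The genes whose level followed each member most closely over the 62 libraries, after removing arm means, were looked up among 14185 genes. All libraries share their side with one another, so these correlations hold the side difference and describe likeness only. For Hapln1 they were the potassium and sodium channel genes Kcna1 and Scn1a (r = 0.96 each) and Piwil2 (r = 0.95). For Hapln4 they included the light neurofilament gene Nefl and the channel subunit gene Kcns1 (r = 0.97 each). Bcan was also closest to Nefl (r = 0.91), followed by Hhatl (r = 0.90) and the mitochondrial creatine kinase gene Ckmt1 (r = 0.89). Tnr was closest to Rab27b (r = 0.89). For the genes that rose, the genes closest to Ncan included Nckap5l (r = 0.87), and Cspg5 was closest to Azin2, Map7d1 and the cytokine inhibitor gene Socs3 (r = 0.89 each). Cspg4 was closest to the basement membrane collagen gene Col4a2 (r = 0.79), Vcan to Ptpn14 and Slit2 (r = 0.76 each), Tnc to B4galnt3 (r = 0.67) and Acan to Hmmr (r = 0.60) and the cartilage collagen gene Col11a2 (r = 0.52).

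Within groups some members still varied together from library to library. With the mean of each side and arm removed, r was 0.77 for Hapln1 and Hapln4, against 0.95 with only arm means removed. It was 0.66 for Vcan and Cspg4 on either basis. For Hapln4 and Bcan it was 0.44 (0.88 with only arm means removed), and for Ncan and Cspg5 0.31 (0.80). Between the neighbours Hapln4 and Ncan it was 0.06 within groups and -0.68 across sides. Libraries share depth and scaling in these comparisons, and each r is over 62 libraries.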

How the data were processed

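Gene expression was measured by poly-A RNA sequencing (TruSeq Stranded mRNA, single-end reads) in 62 libraries. Per the submitters' processing notes, which name tools and a build with no role or order, the tools include featureCounts 1.6.4, STAR 2.7.2b, cutadapt 2.5 and bcl2fastq 2.20.0.422, and the build is mRatBN7.2. The strand setting of counting is not given in the sources used here. The authors deposited estimated counts per gene (74.1% and 78.1% of nonzero values whole in the first and second table), which were rounded to integers. The planned unit had been counts. Estimated counts were used in its place. The labels give no source animals for males at 1 and 5 weeks, so p-values measure the spread between these samples.

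With edgeR 4.0.16 (R 4.3.3), genes were kept by filterByExpr (minimum count 10) and scaled by TMM. Robust quasi-likelihood fits used one mean per group within each table, or over both tables for contrasts across them. These main fits did not use the pairing of the sides by replicate number, which the replicate block did. Calls and p-values are from the main fits unless another setting is named. A call is a Benjamini-Hochberg adjusted p under 0.05 over all genes tested. Each standard error (SE) was taken as |log2 fold change| over the root of the F statistic. Alternatives used limma 3.58.1 (voom), DESeq2 1.42.0, other scaling, filters, covariates, reference libraries and samples, and each library left out. The 10 members and the 7 pathway and 10 marker lists were chosen with earlier results of these data known. Named are all members, the 3 genes of smallest p per pathway list and arm (some with values in other arms beside them) and the 3 genes most like each member. Marker genes named beside a result were chosen after their values were seen. Some genes that this rule names are not reported here. Fits were tested on simulated data. No 2 libraries were identical.

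Replicate numbers pair the sides: the labels record the same animal code for both sides in the second table. In the first, every same-numbered pair correlated at 0.261 or more after group means were removed. The lowest such r in the second was 0.0661 at 24 h, 0.088 in females at 1 week and 0.322 at 5 weeks. At 24 h 4 of 6 IL libraries correlated best with the CL library of their own number.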

Additional observations from a re-analysis of the deposited data

Results flagged for a closer look

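In 9 of 100 sets of values (10 genes in 10 groups) the highest or lowest library stood apart from its group by Dixon's criterion, which chance meets in about 1 set in 20. Acan accounted for 3 of them, with 9.07 CPM in IL replicate 4 of males at 5 weeks (next 0.763 CPM), 4.71 CPM in IL replicate 3 of males at 24 h (next 0.982 CPM) and 4.36 CPM in CL replicate 3 of females at 5 weeks (next 1.23 CPM). In the same 3 libraries Col10a1 had 16.9, 3.08 and 8.76 CPM, against a median of 1.86 CPM over all libraries and up to 3.45 CPM in libraries under 2 CPM of Acan. The part of cartilage RNA in these values was not tested.

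Vcan was low on both sides of replicate 6 of males at 1 week, with 5.38 CPM in the IL library (next 11.2 CPM) and 5.89 CPM in the CL library (next 10.8 CPM). Hapln4 was high in IL replicate 3 of males at 1 week (66.9 CPM, next 46.3 CPM) and low in CL replicate 1 of males at 5 weeks (87.4 CPM, next 120 CPM). Hapln1 was high in CL replicate 5 of males at 24 h (48.6 CPM, next 38.7 CPM), a library that also had 3.76 CPM of Acan and 16.8 CPM of Col10a1. Bcan was high in IL replicate 4 of males at 24 h (129 CPM, next 99.8 CPM).

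A test of the difference between arms was passed for 4 members. The side effect of Cspg4 in females was 0.59 higher at 5 weeks than at 1 week on the log2 scale (adjusted p = 0.0125, edgeR's quasi-likelihood test with Benjamini-Hochberg adjustment), lower in 7 of 7 pairs at 1 week and higher in 6 of 6 at 5 weeks. With the ribosomal RNA share as a covariate, the 1 week side effect was -0.07 (adjusted p = 0.842). The difference between weeks was not refitted with that covariate. In males the differences between 1 week and 24 h were -1.22 for Hapln1 (adjusted p = 1.06e-05), -1.18 for Hapln4 (adjusted p = 2.8e-06) and -0.80 for Bcan (adjusted p = 0.000107), where time and count table cannot be told apart.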

How the results depend on the processing

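Of 886 values recomputed under other settings, 842 kept their direction and their side of the threshold, as did 1404 of 1470 with 1 library left out. In every setting tried Hapln1, Hapln4, Ncan and Cspg5 kept their calls at 1 and 5 weeks in both sexes, and Ncan and Cspg5 also at 24 h. The number of members called with the replicate block, a paired fit, moved to 5 at 24 h. It was 1 for the difference of males between weeks, 4 for that of females and 2 for females over males at 1 week. The block also newly called Vcan in the contrast of males at 1 week over 24 h. It newly called Tnc at 1 week in both sexes, and Tnr and Cspg4 in females at 5 weeks. Over all genes it called 497 in place of 40, 517 in place of 214 and 697 in place of 405 for males between weeks and for females over males at 1 and 5 weeks. DESeq2 called 140 in place of 40 for the first. Males at 24 h fitted alone gave 1604 genes in place of 2560. The ribosomal RNA share as covariate left 5 members and 4060 genes, in place of 8276, in females at 1 week. For the contralateral females between weeks, no filter and limma-voom each gave 0 members, and leaving out libraries gave 0 to 1. Reversed were Tnc when the other week's contralateral libraries were used (0.50 at 1 week and -0.71 at 5 weeks in males) and Acan without IL replicate 4 of males at 5 weeks (-1.23, with -1.23 to 1.14 over all libraries left out). With the other week's contralateral libraries Vcan was called at 0.58 and -0.67 in males at 1 and 5 weeks and at -0.94 in females at 5 weeks, and Tnr in males at 5 weeks was not called (-0.26). Vcan at 24 h was called lower without CL replicate 4 or IL replicate 1 (-0.73 to -0.40 over all libraries left out), and Tnr in females at 5 weeks without IL replicate 2 (-0.36 to -0.18). The causes were not tested. Acan had the lowest counts of the members, with as few as 4 in a library.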
